A study of Mus musculus with 9 samples.

Results

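Osteoblasts were sought in a single-cell survey of arthritic and control mouse knees as the cells in which the counts of Bglap, Bglap2 and Ibsp summed to 4 or more. Bglap and Bglap2 encode osteocalcin, the most abundant non-collagen protein of bone, and Ibsp encodes integrin-binding sialoprotein, a mineral-binding protein of bone matrix. The rule found 74 of 16751 cells (0.442%), of which 17 came from healthy and 57 from sick mice. Members were thus chosen by the measured counts of these 3 genes, so their levels in the gated cells are given as a description and are not tested. Of the 74 gated cells, 60 also held a count of Col1a1 or Col1a2, the genes of the type I collagen chains (81.1%, exact Clopper-Pearson 95% interval 70.3 to 89.3%). Among the 16677 other cells the share was 5.50% (interval 5.16 to 5.86%).

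Whole left knee joints were dissociated and profiled with Seq-Well, in which single cells are captured in nanowells with barcoded beads and the polyadenylated RNA of each cell is counted. All animals were female 129/Sve mice of 8 weeks. The 5 Sick mice (numbers 1, 3, 4, 5 and 6) had antigen-induced arthritis: after pre-sensitization to methylated bovine serum albumin (mBSA) they received mBSA into the left knee, and arthritis was checked by immunohistochemistry. The 4 Healthy mice (numbers 1 to 4) received 20 µL of phosphate-buffered saline (PBS) in the same joint. All joints were taken 1 week later, and the labels do not say whether the PBS mice had also been pre-sensitized. A joint prepared whole holds bone, marrow, cartilage and synovium together, and 1 joint is 1 library and 1 replicate.

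Osteoblasts derive from mesenchymal progenitors and lay down bone matrix. They secrete type I collagen first, deposit mineral on it with the help of alkaline phosphatase and acidic matrix proteins, and switch on osteocalcin late in maturation. Some become osteocytes buried in bone, and their marrow-side relatives, the stromal cells rich in Cxcl12, support blood cell formation. In inflammatory arthritis bone formation near the joint is known to be disturbed.

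The osteocalcin genes are shown first because their near identity limits how the counts can be read. In the GENCODE M21 annotation of GRCm38, Bglap lies on the minus strand of chromosome 3 from 88383501 to 88384464, Bglap2 from 88377736 to 88378699 and the related Bglap3 from 88368616 to 88372743. Over the 288 coding bases Bglap and Bglap2 are identical at 284 (98.6%), and the 134 bases after the stop codon are identical at all 134. The last 90 coding bases, the end that a poly(A)-primed library reads, are as follows. Capitals in Bglap mark positions at which either relative differs, and capitals in the relatives mark the bases that differ from Bglap, 1 in Bglap2 and 7 in Bglap3.
Bglap: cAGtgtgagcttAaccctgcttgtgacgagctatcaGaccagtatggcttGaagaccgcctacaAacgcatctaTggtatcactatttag
Bglap2: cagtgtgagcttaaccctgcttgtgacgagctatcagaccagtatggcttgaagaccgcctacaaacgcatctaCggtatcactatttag
Bglap3: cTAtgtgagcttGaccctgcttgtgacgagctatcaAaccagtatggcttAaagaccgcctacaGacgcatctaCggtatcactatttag
Counts credited to these genes could therefore have been exchanged between them by the authors' counting, and below they are read together as osteocalcin. Bglap3 was not part of the rule and is uncertain for the same reason.

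The 250 bases before the start of Bglap (RefSeq, GRCm38.p6, minus strand, chr3:88384467-88384716) are printed because the matrix genes of the gated cells go together, and Runx2, the factor that commits cells to the osteoblast lineage, is known to bind elements of this kind in the osteocalcin promoters. Capitals mark ACCACA, whose first base lies 132 bases before the start.
Bglap promoter: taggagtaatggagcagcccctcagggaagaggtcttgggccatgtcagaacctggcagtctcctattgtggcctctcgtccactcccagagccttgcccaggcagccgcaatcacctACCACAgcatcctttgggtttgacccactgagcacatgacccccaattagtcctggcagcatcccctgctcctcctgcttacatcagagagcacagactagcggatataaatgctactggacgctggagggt
ACCACA was searched on both strands from 250 bases before to 50 after each start. It occurred in a window of 5 of the 16 gate and bone matrix genes that have one, and of 18.9% of 27025 genes in all. Ibsp and Col1a2 had no match. A match describes these letters only and shows no binding.

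The libraries held 877 to 3850 cells and 897477 to 4675909 counts per mouse, with a median of 766 to 1009 counts per cell outside the gate. Gated cells had a median of 1165.5 counts (405 to 11895). No gated cell shared its barcode with a cell of another mouse (8 barcodes occurred in 2 mice). Of the 74 gated cells, 4 formed 2 pairs within a mouse whose 12-base barcodes differed only at the last base (5.41%, against 1.94% of other cells). The pair in Healthy mouse 3 had gate sums of 103 and 44, and the pair in Sick mouse 3 had 67 and 58; each pair may be 1 cell read under 2 barcodes. With the pairs merged the gate held 72 cells, of which 58 had collagen counts (80.6%).

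The gate genes were concentrated in these few cells. The gated cells held 2466 of the 2735 Bglap counts in the whole file (90.2%), 700 of 773 Bglap2 counts (90.6%) and 762 of 957 Ibsp counts (79.6%). They also held 78.6% of all Col1a1 counts, 76.1% of all Col1a2 counts and 55.4% of the counts of Sparc, which encodes osteonectin, a collagen-binding protein of bone that fibroblasts also make. All 3 gate genes were counted together in 43 cells, osteocalcin with Ibsp in 49, osteocalcin without Ibsp in 14 and Ibsp without osteocalcin in 11.

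The share of cells with type I collagen counts rose with the gate sum, but not smoothly at the threshold. It was 5.08% of 16215 cells with a sum of 0, 16.3% of 405 cells with 1, 41.0% of 39 cells with 2 and 66.7% of 18 cells with 3, all just outside the gate. Just inside, it was 50% of 8 cells with a sum of 4 (interval 15.7 to 84.3%) and 41.2% of 17 cells with 5 to 9 (18.4 to 67.1%). All 16 cells with 10 to 19 and all 33 with 20 or more held collagen counts. The intervals cover counting error only.

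**Figure D1:**
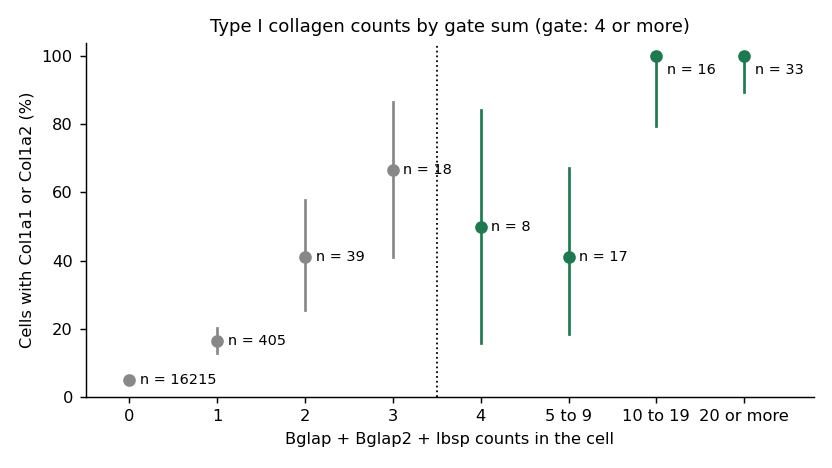
Share of cells with at least 1 count of Col1a1 or Col1a2 (y axis, percent) by the sum of Bglap, Bglap2 and Ibsp counts in the cell (x axis); points are shares over all mice, lines are exact 95% intervals, n is the number of cells, and the dotted line is the gate. The share passes 60% at a sum of 3, falls to 41.2% at 5 to 9 and is 100% of the 49 cells with 10 or more.

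Free RNA was gauged in sets of cells meant to hold blood cells, which make no bone matrix. The neutrophil set took 8010 cells outside the gate with S100a8 and S100a9 at 5% of counts or more (median 820 counts). Of these, 4.98% had a type I collagen count and 1.54% had a Bglap count. That cut was loose: the median share of S100a8 and S100a9 was 4.46% over all cells outside the gate. A gated cell of Healthy mouse 3 with a gate sum of 103 and 264 collagen counts was at 11.7%. Cells that make collagen may thus lie in the neutrophil set, so its shares may not be free RNA alone. Among 2147 erythroid cells (haemoglobin genes at 50% of counts or more, median 1296 counts) the shares were 5.73% and 2.24%. After thinning every cell to 400 counts, type I collagen was counted in 56 of 74 gated cells (75.7%), 2.33% of neutrophil cells and 2.00% of erythroid cells. The shares in gated cells were above those in both reference sets, but 14 of the 25 gated cells with a sum of 4 to 9 held no collagen count. The part of free RNA in the gate was not tested.

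The gated cells fell into 3 patterns, which were drawn after their values had been seen and are described without a test. In the first, 47 cells held osteocalcin and at least 10 collagen counts. Their median gate sum was 39 (range 4 to 452), type I collagen made up 11.4% of all their counts, Sparc was counted in all 47, and Col11a1, a fibril-forming minor collagen chain made by osteoblasts and chondrocytes, in 41. Haemoglobin genes made up a median of 4.39% of their counts (range 0.709 to 42.8%). These 47 cells, 13 from healthy and 34 from sick mice, include those with the markers that define osteoblasts. In 2 deep cells among them collagen was under 1% of counts. They are the deepest gated cell, from Sick mouse 3 (11895 counts, collagen 0.303%), and a cell of Sick mouse 4 (6060 counts, collagen 0.264%). Both held Cxcl12, with 47 and 4 counts. The deepest cell also held Gas6 (10 counts), Lepr and Kitl (2 each) and Adipoq (1). Genes of bone were counted in both cells: Ibsp (34 and 21), Mmp13 (38 and 2), Wif1 (7 and 2) and Alpl (5 and 2). These counts do not settle the label of the 2 cells.

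In the second pattern, 16 cells held osteocalcin but under 10 collagen counts, with a median gate sum of 5.5. Haemoglobin genes made up a median of 43.9% of their counts and S100a8 with S100a9, the calprotectin genes of neutrophils, 12.3%. Col11a1 was at 0 in all 16, Sparc was counted in 4, and collagen counts were present in 7. Of these cells 11 were from Sick mouse 6, 3 from Healthy mouse 3 and 2 from Sick mouse 5. For the cells of Sick mouse 6 and Healthy mouse 3 the osteoblast label rests on a few counts of the gate genes. The 2 cells of Sick mouse 5 differed, with 3.14% and 7.39% haemoglobin counts. They held 3 and 6 Ibsp counts, 6 and 12 Spp1 counts and 2 Mmp13 counts each. Both also held 1 Cxcl12 count, and the first held 1 count each of Lepr, Kitl and Gas6. All 3 gated cells of Sick mouse 5 held Cxcl12. The part of free RNA in the labels of this pattern was not tested. Over all gated cells, those with a gate sum of 4 to 9 had a median of 35.0% haemoglobin counts and those with 10 or more 4.68%. Haemoglobin was at 25% or more in 10 of 17 healthy and 14 of 57 sick gated cells, 9 of them from Healthy mouse 3 and 14 from Sick mouse 6. Of these 24 cells, 16 held collagen counts, so high haemoglobin was not confined to the second pattern.

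In the third pattern, 11 cells held Ibsp (4 to 18 counts) without osteocalcin, 1 from a healthy and 10 from sick mice. Type I collagen was counted in 6 of them, at most 12 counts, and Col11a1 in none. Cxcl12, the chemokine that holds blood stem cells in the marrow, was counted in 8, Adipoq in 6, Gas6 in 5, Kitl, the stem cell factor gene, in 4 and Lepr in 3. All of these are markers of the marrow stromal cells named for Cxcl12 and the leptin receptor. Other genes of bone were present too. Sparc was counted in 6 of the 11 cells, and Spp1 and Mmp13 in 4 each. Wif1 and Phex were counted in 2 each, and Alpl and Runx2 in 1 each. The stromal markers go against the osteoblast label for the 8 cells with Cxcl12, all from sick mice. Some of them also held a few bone gene counts, so these counts do not settle the label. Grem1, Ebf3 and Foxc1, which are on the marrow stroma list, were not examined by pattern. The other 3, 1 of them the healthy cell, held no count of Cxcl12, Adipoq, Gas6, Kitl or Lepr. Beside Ibsp they held at most 3 collagen and 2 Sparc counts each. The cell of Sick mouse 1 also held 5 Spp1 counts, and the cell of Sick mouse 6 held 4 Mmp13 counts and 1 Spp1 count. The label of these cells thus rests on Ibsp and a few other counts. The healthy cell also held 6 counts of Col3a1, a gene on the fibroblast list. The osteoblast markers are carried mainly by the cells of the first pattern.

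**Figure D2:**
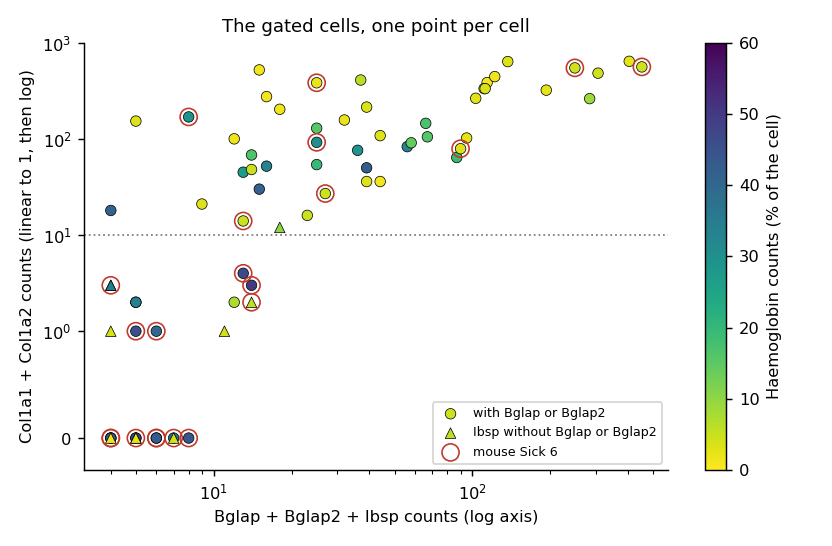
Each of the 74 gated cells by its Bglap, Bglap2 and Ibsp counts (x axis, log) and its Col1a1 and Col1a2 counts (y axis, linear to 1 and log above); colour is the percent of haemoglobin counts, triangles are the 11 cells with Ibsp only, red rings mark Sick mouse 6, and the dotted line is 10 collagen counts. The 14 cells without collagen counts overlap at the lower left, where some of the dark, haemoglobin-rich points are. Every cell with a gate sum above 20 lies above the line.

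The share of gated cells did not differ between groups beyond the spread between mice. It was 0.190% in Healthy mouse 1 (2 cells), 0% in mouse 2, 0.929% in mouse 3 (13 cells) and 0.164% in mouse 4 (2 cells). In Sick mice it was 0.382% in mouse 1 (8 cells), 0.494% in mouse 3 (19), 0.429% in mouse 4 (6), 0.132% in mouse 5 (3) and 0.810% in mouse 6 (21). The absence in Healthy mouse 2 rests on 877 cells, which allow a share of up to 0.342% at a floor of 3 cells. The highest and the lowest mouse were both healthy, so the groups overlapped fully.

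The mean share was 0.449% ± 0.244 (SD, n = 5) in sick and 0.321% ± 0.414 (SD, n = 4) in healthy mice, a difference of 0.129 percentage points (exact permutation test over all splits, two-sided p = 0.587; the smallest p possible was 0.0159). Healthy mouse 3 held 13 of the 17 healthy cells, and without it the difference was 0.332 points (exact permutation p = 0.107).

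**Figure D3:**
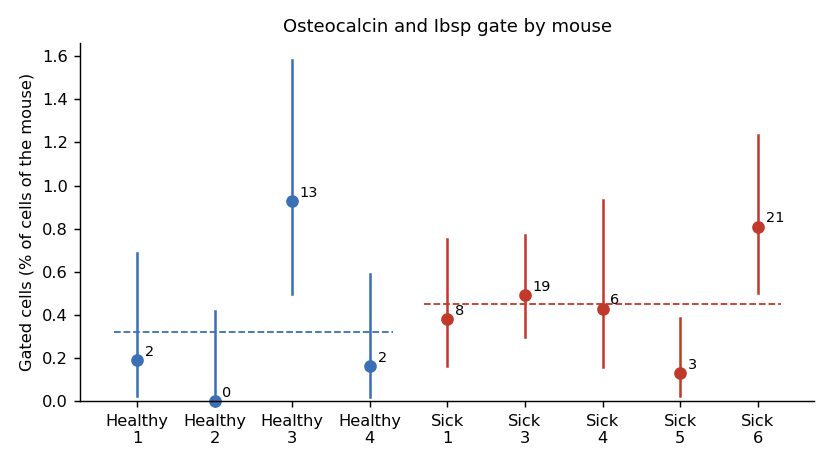
Gated cells as a percent of all cells of the mouse (y axis) for each mouse (x axis); points are shares with exact 95% intervals for counting error, figures beside the points are numbers of gated cells, and dashed lines are group means. Healthy mouse 3 and Sick mouse 6 are highest, at 0.929% and 0.810%, and the groups overlap.

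The genes that set the gated cells apart were those of collagenous bone matrix. For each gene, the mean level over the 8 mice with gated cells, in CPM (a gene's share of the summed counts of the cells, scaled to a fixed total), was compared with the other cells of the same mice as a log2 ratio with 1 CPM added. These are descriptions with no test, since the gate chose the cells. Leading the ranking among genes counted in at least 20% of gated cells were Bglap (10.66), Bglap3 (10.65) and Bglap2 (10.38). Next came Col1a1 (9.65), Col1a2 (9.50), Col11a1 (9.44), Ibsp (8.88) and Sparc (8.37). Also among the first 20 were Car3 (carbonic anhydrase 3, 7.77), Kazald1 (a secreted protein of the insulin-like growth factor binding protein family, 7.71), Cdh2 (N-cadherin, 7.67), Col11a2 (7.62), Lox (7.54) and Col5a2 (7.42). Further down the first 20 were Wisp1 (a matricellular protein, 7.37), Snhg18 (7.21), Serpinf1 (7.16), Smpd3 (7.16) and Prss35 (7.12).

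Type I collagen was high in the gated cells of 7 of the 8 mice. The summed Col1a1 level was 50938 CPM in Healthy mouse 1, 32227 in mouse 3 and 25424 in mouse 4. In Sick mice it was 82757 CPM in mouse 1, 35570 in mouse 3, 28119 in mouse 4, 282 in mouse 5 and 29247 in mouse 6. Only Sick mouse 5 was low: its 3 gated cells held 1 Col1a1 count and 2 Col1a2 counts between them. In other cells the mean was 43.2 CPM ± 49.5 (SD, n = 8).

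Col1a2 followed the same order within each group, with 93536 CPM in Healthy mouse 1, 38729 in mouse 3 and 18160 in mouse 4. Its Sick values were 122933, 41095, 29681, 564 and 39154 CPM in mice 1, 3, 4, 5 and 6. Sparc was 41108, 12723 and 1816 CPM in the Healthy mice 1, 3 and 4, and 45463, 13414, 8108, 1129 and 12265 CPM in the Sick mice in the same order. Healthy mouse 1 and Sick mouse 1 were thus highest for all 3 genes, and the groups overlapped. The levels of Healthy mouse 1 rest on a single cell. It held 170 of the 171 Col1a1, 312 of the 314 Col1a2 and 136 of the 138 Sparc counts.

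**Figure D4:**
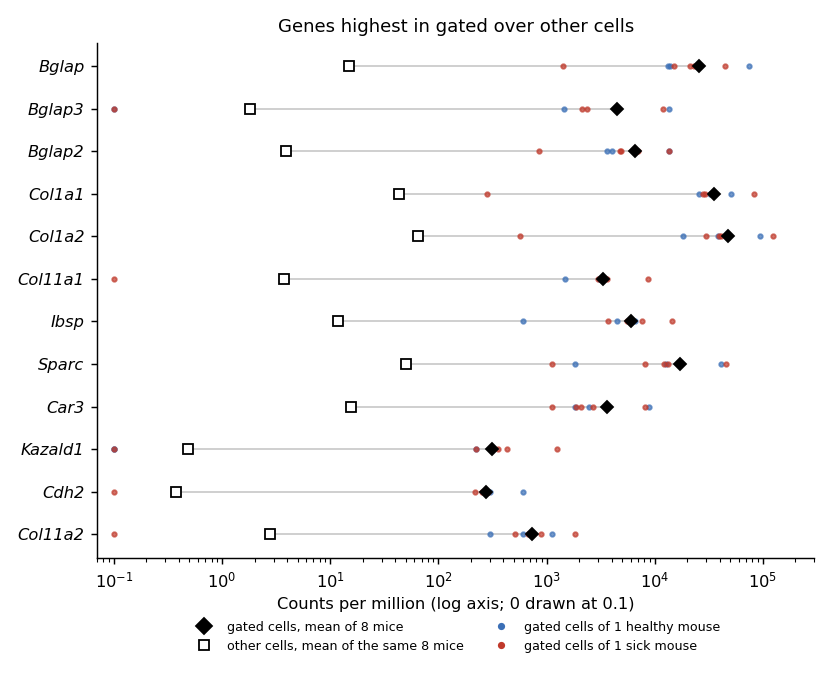
The 12 genes with the largest log2 ratio of gated over other cells (y axis), by their level in CPM (x axis, log, 0 drawn at 0.1); diamonds are means of the summed gated cells of 8 mice, squares are means of the other cells of the same mice, and small points are single mice. Every diamond lies far to the right of its square (log2 ratios of 7.62 to 10.66), and the points at 0.1 are mice with no count in their gated cells.

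Of 18 genes on the bone matrix list, 17 were in the file and 16 had a log2 ratio of 1 or more, with a median of 6.52. Over the 19475 genes with 10 or more counts the median was −0.89, with 2493 at 1 or more and 8946 at −1 or less, and the other lists are to be read beside these. Tnn, which encodes tenascin-W, was at 0. Besides the type I chains, Col11a1 was counted in 41 gated cells, Col5a2, a chain that sets collagen fibril width, also in 41, and Col11a2 in 33. Serpinf1, whose product restrains blood vessel growth and whose loss causes brittle bone, was counted in 27. Spp1, the gene of osteopontin, was counted in 16 cells, none of them healthy, with a log2 ratio of 3.82.

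Genes for mineral deposition were present at low counts. Of 12 measured members, 7 had a log2 ratio of 1 or more and 3 of −1 or less. Alpl, the tissue-nonspecific alkaline phosphatase that frees phosphate for mineral, was counted in 22 gated cells with 44 counts in all (331 CPM ± 242, SD, n = 8; log2 ratio 6.87). Smpd3, a sphingomyelinase needed for mineralization, was counted in 19 cells and Phex, an endopeptidase that guards phosphate balance, in 18. Ifitm5, a membrane protein specific to bone-forming cells, was counted in 9 cells, all with a gate sum of 10 or more. Mgp, an inhibitor of calcification, and Slc20a2, a phosphate carrier, were at 0.

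Markers of osteocytes were counted in a minority of gated cells. Of 10 list members, 5 were in the file and all 5 had a log2 ratio of 1 or more: Phex, Dmp1, a mineral-nucleating matrix protein, in 5 cells, Ptprz1 in 6, Kcnk2 in 3 and Pdpn in 2. Sost, Mepe, Fgf23, Dkk1 and Irx5 were not in the file. At least 1 of the 5 was counted in 27 of 74 gated cells and in 22 of the 49 with a gate sum of 10 or more, mostly as Phex (18 cells), which is also on the mineralization list.

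Among 12 measured transcription factors of the lineage, 8 had a log2 ratio of 1 or more and none of −1 or less. Id3, an inhibitor of helix-loop-helix factors, was counted in 38 gated cells (log2 ratio 3.98). Mef2c was counted in 16 cells (2.69). Runx2 was counted in only 8 cells (1.23) and Sp7, the osterix gene that acts after Runx2, in 4 (4.86), with at most 1 count per cell. Creb3l1, which drives collagen secretion, was counted in 4 cells (5.25). Atf4 was level with the other cells (0.00), and Msx1 and Msx2 were at 0.

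Of 20 measured genes of hormone, BMP and Wnt signalling, 15 had a log2 ratio of 1 or more. Pth1r, the parathyroid hormone receptor, was counted in 10 cells (log2 ratio 6.52), and Wif1, a secreted Wnt inhibitor of mature osteoblasts, in 9 (6.87). Bmp3, a BMP antagonist of bone, was counted in 9 (6.54) and Fgfr1 in 9 (6.57). Bmp2, Bmpr1b and Nog were at 0.

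The collagen processing list held 23 measured genes, of which 18 had a log2 ratio of 1 or more. Serpinh1, the collagen chaperone of the endoplasmic reticulum, was counted in 34 gated cells in all 8 mice (612 CPM ± 239, SD, n = 8; log2 ratio 7.02). Lox, which cross-links collagen, was counted in 27 cells (7.54) and Plod2, a lysyl hydroxylase, in 19 (6.22). Fkbp10, a prolyl isomerase whose loss causes brittle bone, was counted in 14 (6.82). Kdelr2, a retrieval receptor of secretory cells, was counted in 27 (2.35), while the general folding enzymes P4hb (0.62) and Ppib (0.33) were near the level of other cells. The 13 general chaperones of the endoplasmic reticulum had a median log2 ratio of 0.00, and 1 of them reached 1.

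Signals from osteoblasts to osteoclasts were not detected or rare. Tnfsf11, the gene of the osteoclast-inducing ligand RANKL, was at 0 in all gated cells, as were Il6, Il7 and Il34. With 0 of 74 cells the data allow no statement on a low level. Csf1, the macrophage growth factor gene, was counted in 1 cell. Vcam1, an adhesion molecule of stroma, vessels and macrophages, was counted in 7 cells. All 7 marrow stroma markers had a log2 ratio of 1 or more (median 5.18), with Cxcl12 counted in 12 gated cells and Gas6 and Adipoq in 7 each.

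Markers of other cell types in the gate were as follows. Of 8 measured osteoclast genes, Ocstamp, Dcstamp, Atp6v0d2, Nfatc1 and Itgb3 were at 0. Ctsk, the collagen-cleaving cathepsin K, was counted in 6 cells (9 counts, log2 ratio 3.30), Mmp9 in 2 and Acp5 in 2. The summed osteoclast list was 298, 224 and 0 CPM in gated cells of Healthy mice 1, 3 and 4 and 0 to 247 CPM in Sick mice, against 122 to 221 CPM in other cells, and it was above the other cells in Healthy mice 1 and 3 and Sick mouse 3. Of 8 endothelial genes, 6 had a log2 ratio of 1 or more (median 1.73), but they rested on 7 gated cells: the summed list was 0 in all 3 Healthy mice and 0 to 495 CPM in Sick mice, highest in Sick mouse 3, against 32.6 to 52.9 CPM in other cells. Of 8 skeletal muscle genes 1 had a log2 ratio of 1 or more and 4 of −1 or less, and of 4 smooth muscle genes 1 and 1. Of 8 measured cartilage genes, Col9a2, Col9a3, Hapln1, Col10a1 and Cnmd were at 0, Sox9 and Comp were each counted in 1 cell, and Col2a1, the type II collagen gene, in 17. Of 11 fibroblast genes, Dpt, Clec3b, Thy1, Dpp4 and Mfap5 were at 0, Prg4 was counted in 1 cell and Col3a1 in 3. Dcn and Lum, proteoglycans that osteoblasts also make, were counted in 38 and 26 cells. Blood cell markers were present: the summed neutrophil list ranged from 29056 to 68714 CPM in gated cells of Healthy and from 33591 to 326559 CPM in those of Sick mice. The erythroid list ranged from 48257 to 349274 and from 20569 to 272371 CPM. The macrophage list ranged from 1211 to 5100 and from 2115 to 8750 CPM, below or near the other cells. The B cell, plasma cell and T or NK cell lists held no gene with a log2 ratio of 1 or more. Their part in the results was not tested.

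Among RNA quality and composition measures of the gated cells, the share of mitochondrial counts did not overlap between healthy and sick mice, but no measure passed after adjustment. Over the 3 Healthy and 5 Sick mice with at least 2 gated cells, mitochondrially encoded counts made up 9.42% ± 0.569 (SD, n = 3) of the counts in healthy and 4.66% ± 0.822 (SD, n = 5) in sick gated cells. The groups did not overlap (exact permutation test, two-sided p = 0.0357, the smallest the design allows; 0.25 after Benjamini-Hochberg adjustment over 7 measures). Haemoglobin counts were 21.7% ± 15.4 and 8.89% ± 10.2 (adjusted p = 0.4, exact permutation test). The share of gated cells with collagen counts was 97.4% ± 4.44 and 80.0% ± 14.3 (adjusted p = 0.3125, exact permutation test). Outside the gate the share of mitochondrial counts was mostly lower in sick mice too, though the groups overlapped there. It was 5.47%, 6.95%, 8.55% and 10.3% in Healthy mice 1 to 4. Sick mice 1, 3, 4, 5 and 6 had 3.98%, 3.09%, 6.06%, 3.15% and 3.73%. In the sum of all cells, all 7 tested mitochondrially encoded genes passed in edgeR as lower in sick mice (median log2 difference −1.55). Over all 10323 genes tested there, 31 passed as lower (0.3%). The lower share of mitochondrial counts was thus not particular to gated cells.

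Disease could be tested within the gate only weakly. The design asked for mice with at least 5 gated cells, which left 1 Healthy and 4 Sick mice and no test. A test over mice with at least 2 gated cells (3 Healthy, 5 Sick), chosen after the cell numbers were seen, is therefore given: the counts of gated cells were summed per mouse without the gate genes and fitted with edgeR's quasi-likelihood test. Of 70 genes with enough counts, 0 passed an adjusted p of 0.05 (0% called) and 8 had an unadjusted p under 0.05, 6 higher and 2 lower in sick mice. DESeq2 also called 0, with 10 genes at an unadjusted p under 0.05. Leaving out Sick mouse 1 or Sick mouse 6 gave 1 call each.

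The main matrix genes showed estimates near 0 with wide errors. The log2 difference of sick minus healthy was 0.10 ± 1.13 (SE) for Col1a1, 0.07 ± 1.16 for Col1a2 and −0.02 ± 1.14 for Sparc (edgeR adjusted p = 0.988 for each). It was 0.68 ± 0.919 for Col11a1 (edgeR adjusted p = 0.738). Differences within these errors were not detectable with so few gated cells, and for Col1a1, Col1a2 and Sparc the sign changed with the settings. Larger differences could be missed too: in simulated data this test called 0% of 2-fold and 0% of 4-fold changes. Of the 108 genes on the bone lists, 11 were tested, with a median of 0.10 against 0.45 over all 70.

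Spp1 had the smallest p in the gated cells. It was at 0 counts in the gated cells of Healthy mice 1, 3 and 4, and at 5, 37, 19, 18 and 5 counts in those of Sick mice 1, 3, 4, 5 and 6. The groups did not overlap, and 16 of 57 sick and 0 of 17 healthy gated cells held a count. Of the 84 counts, 44 lay in 7 cells with osteocalcin and at least 10 collagen counts, all from Sick mice 3 and 4. Another 21 lay in 5 cells with osteocalcin and under 10 collagen counts, and 19 in 4 cells with Ibsp and no osteocalcin. In Sick mice 1, 5 and 6 every Spp1 count lay in these other cells. Among cells with osteocalcin and at least 10 collagen counts the groups therefore overlapped. Against a floor of 3 counts over the 22851 counts of the healthy group, the level was at least 7.01-fold higher in sick gated cells. The edgeR adjusted p was 0.0815. It was 0.0309 without the gated cell of most counts and 0.0193 without Sick mouse 6, so the call depended on these. Healthy mouse 3 held most of the healthy counts, and without it the bound was 1.54-fold. In the other cells Spp1 was 15.2 to 38.4 CPM in Healthy and 22.3 to 194 CPM in Sick mice; macrophages are a known source of osteopontin, and the part of free RNA from other cells was not tested.

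Cxcl12 had no counts in healthy gated cells and 0, 69, 13, 5 and 8 counts in those of Sick mice 1, 3, 4, 5 and 6 (edgeR adjusted p = 0.181). It was at least 7.92-fold higher in sick than in healthy gated cells against the same floor, a bound of 1.74 without Healthy mouse 3, 3.604 without Sick mouse 3 and 4.60 without the deepest gated cell. Of its 95 counts, 47 lay in a single cell of Sick mouse 3 with 11895 counts, the deepest gated cell. That cell also held 38 of the 57 Mmp13 counts, 33 of the 68 Ifitm3 counts and 24 of the 27 Fabp4 counts of sick gated cells. It counts among the 47 cells with osteocalcin and collagen, and whether it is a doublet was not tested. Of the 12 cells with Cxcl12, 8 were cells with Ibsp and no osteocalcin, a pattern of which 1 cell was healthy. The call passed without Sick mouse 1 (edgeR adjusted p = 0.0132).

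Among further genes at 0 in healthy gated cells were Ifitm3 and Mmp13. Ifitm3, an interferon-induced membrane protein, was counted in 26 of 57 sick gated cells, and Mmp13, the collagenase of bone and cartilage, in 9. The levels in sick gated cells were at least 5.67-fold and 4.75-fold higher against the floor. Without the deepest cell 35 and 19 counts remained, with bounds of 3.36 and 1.82. The bounds were 3.05 and 2.36 without Sick mouse 3, and 1.24 and 1.04 without Healthy mouse 3. Fabp4, Psmb8, Gas6 and Hspa1a were at 0 in healthy gated cells too, with 27, 24, 22 and 20 counts in sick ones. Healthy gated cells held 22851 counts in all and sick ones 91327, so the healthy group had fewer counts in which a gene could appear. The share of all genes at 0 in healthy gated cells was not determined, and those named were chosen after their values were seen. Outside the gate Ifitm3 was also higher in Sick (454 to 817 CPM) than in Healthy mice (97.9 to 327 CPM), without overlap. Of the 33 genes on the interferon list, 0 had enough counts in gated cells to be tested. The next smallest p-values among genes higher in sick mice belonged to B2m (log2 difference 1.76 ± 0.756, SE), Rps18 (1.75 ± 0.812) and Jun (1.77 ± 0.827), each with an edgeR adjusted p of 0.365. Among genes lower in sick mice they belonged to the rows named Gm23935 (−1.94 ± 0.58; edgeR adjusted p = 0.095), Mir6236 (−2.19 ± 0.955; 0.365), Thbs1, which encodes thrombospondin (−1.42 ± 0.69; 0.365), mt-Rnr1, a mitochondrial ribosomal RNA (−1.55 ± 0.871; 0.412), and Hbb-bh1 (−1.46 ± 0.861; 0.431). None of these passed. Fos (1.45 ± 0.742; 0.365), Camp (1.58 ± 1.00; 0.431) and S100a8 (1.64 ± 1.06; 0.431) had positive estimates and did not pass either.

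A model with both cell sets of each mouse asked whether the disease difference in gated cells differed from that in the other cells. Of 8178 genes, 4 passed (edgeR, 0.0489% called). The filter on counts took both cell sets together, and 70 genes had enough counts in gated cells alone. Most of the 8178 thus had few counts in the gate, and the shares called are to be read with that limit. Col2a1, Cxcl12 and Fabp4 had a more positive difference in gated cells (0.0367% called in this direction) and Col3a1 a more negative one (0.0122%). The median estimate over all tested genes was 2.17 on the log2 scale and not 0, so estimates are to be read against that. The p-values are for a difference from 0 and not from this median. Of 59 tested genes on the bone lists, 1 passed (Cxcl12), and the 59 had a median of 0.55. In gated cells alone 11 bone list genes had enough counts.

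Col2a1 had 0, 1 and 0 counts in the gated cells of Healthy mice 1, 3 and 4, and 11, 13, 3, 0 and 12 in those of Sick mice 1, 3, 4, 5 and 6. Outside the gate it had 1, 26 and 1 counts in the same Healthy mice and 1 to 4 counts in each Sick mouse. The estimate was 7.60 ± 1.09 (SE; edgeR adjusted p = 2.11e-08), and without Healthy mouse 3, which held the counts outside the gate, the adjusted p was 0.789. Fabp4, a fatty acid carrier of fat and endothelial cells, rested on the deepest cell: its estimate was 12 ± 2.43 (SE; edgeR adjusted p = 0.0034), with an adjusted p of 0.845 without that cell. The Fabp4 call was also lost on leaving out any of the 3 Healthy mice, Sick mouse 3 or Sick mouse 5. Cxcl12 (12.31 ± 2.84, SE; edgeR adjusted p = 0.0293) lost the call on leaving out any of the 3 Healthy mice, Sick mouse 4, Sick mouse 5 or Sick mouse 6, with adjusted p-values up to 0.783. Col3a1 (−6.20 ± 1.37, SE; edgeR adjusted p = 0.0174) lost it without Sick mouse 3 or 5 and turned to 4.55 (adjusted p = 0.913) without Healthy mouse 1. Col3a1, a collagen of soft connective tissue, had 11 counts in the gate in all, 6 of them in Healthy mouse 1. Those 6 lay in 1 cell of 648 counts, which held Ibsp without osteocalcin, and no other healthy gated cell held Col3a1.

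In the sum of all cells of a joint, bone genes did not differ between groups beyond the spread between mice. Here fewer cells of a type and less RNA per cell cannot be told apart. Across 10323 genes, 97 passed in edgeR (0.94% called), 66 higher (0.639%) and 31 lower (0.3%) in sick mice. Of the 108 genes on the bone lists 36 were tested: 0 were higher and 1 was lower, with a median log2 difference of 0.17 against −0.02 over all genes.

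Levels here are CPM scaled by TMM, a factor per library that evens out its composition. Bglap was at 148, 5.02, 269 and 41.8 CPM in Healthy mice 1 to 4, and at 172, 107, 172, 7.20 and 227 CPM in Sick mice 1, 3, 4, 5 and 6. Each group held mice with almost none, Healthy mouse 2 and Sick mouse 5. The log2 difference was 0.21 ± 1.04 (SE; edgeR adjusted p = 0.947). It was −0.07 ± 0.918 for Ibsp, 0.22 ± 1.02 for Col1a1, 0.26 ± 0.967 for Col1a2 and 0.50 ± 0.818 for Sparc, none of which passed. Healthy mouse 3 was the highest of all mice for Bglap, Ibsp and both collagen genes, with 151 CPM of Ibsp and 615 CPM of Col1a1. Without TMM scaling it was highest for Ibsp (113 CPM) and Col1a1 (461 CPM), while Sick mouse 6 was highest for Bglap (218 CPM) and Sick mouse 1 for Col1a2 (562 CPM). Without Healthy mouse 3 the estimates were 0.98 for Bglap, 1.54 for Ibsp, 1.72 for Col1a1 and 1.54 for Col1a2, and none passed.

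Spp1 was at 32.5, 25.1, 20.1 and 24.7 CPM in the Healthy mice and at 19.5, 169, 72.2, 124 and 97.0 CPM in the Sick mice in the same order. All sick mice but mouse 1 lay above the healthy range. The log2 difference was 1.90 ± 0.577 (SE; edgeR adjusted p = 0.21). DESeq2 gave an adjusted p of 0.0295, and edgeR without Sick mouse 1 gave 0.000438. Only 4.40% of all Spp1 counts lay in gated cells.

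Vcam1 was the bone list member that fell. It was at 81.1, 58.9, 64.0 and 69.4 CPM in Healthy mice 1 to 4 and at 38.3, 41.0, 42.3, 25 and 44.5 CPM in the Sick mice, without overlap on this scale. Without TMM scaling the groups met: Healthy mouse 3 was at 48.0 CPM and Sick mouse 3 at 48.5 CPM. The log2 difference was −0.85 ± 0.187 (SE; edgeR adjusted p = 0.0365). Of its counts, 11 were in gated cells, and over the cells outside the gate the difference was −0.86 (edgeR adjusted p = 0.0343). The adjusted p rose above 0.05 when any of the 4 Healthy mice or Sick mouse 1, 3 or 5 was left out, at most to 0.0998.

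**Figure D5:**
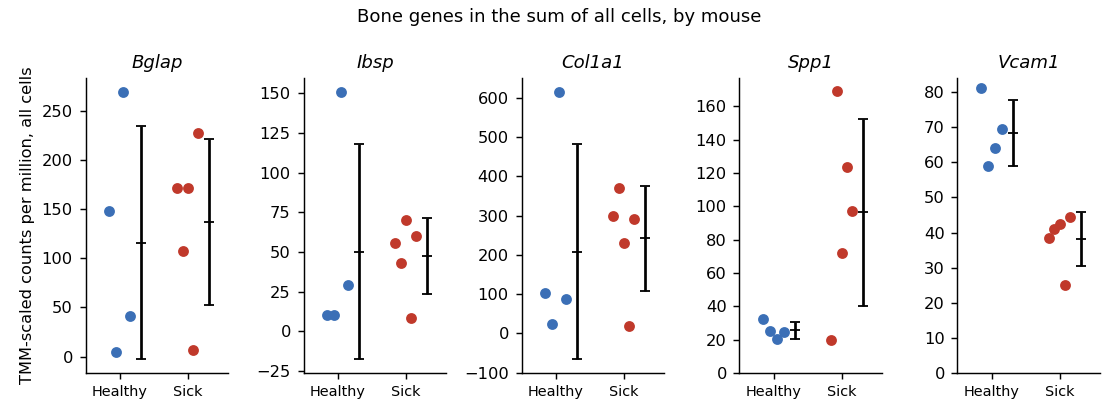
Levels of 5 bone genes in the sum of all cells of each joint (y axes, TMM-scaled CPM, a scale for each gene) for Healthy (n = 4) and Sick (n = 5) mice (x axes); points are mice and bars are means with SD. Bglap, Ibsp and Col1a1 overlap fully between groups, Spp1 lies above the healthy range in 4 of 5 sick mice, and Vcam1 lies below it in all 5 on this scale, though not without TMM scaling.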

How the data were processed

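Seq-Well libraries of 9 whole knee joints were analysed. The deposited values are whole-number counts per gene and cell; per the labels' protocols, the authors followed the Drop-seq core computational protocol with bcl2fastq, Picard and STAR and merged the reads of several sequencing rounds. The labels' protocol names GRCh38, a human build, while the submitters' processing notes name GRCm38 and mm9; which was used for the counts is not given in the sources used here. Gene coordinates are from GENCODE M21 (GRCm38), in which 22894 of 24296 gene symbols (94.2%) were found.

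The gate, the cell patterns and the gene lists were chosen with earlier results of these data known. Doublets were not called. Counts of gated cells, of the other cells and of all cells were summed per mouse. edgeR 4.0.16 (R 4.3.3; filterByExpr, TMM, robust quasi-likelihood fit) was the main test, with Benjamini-Hochberg adjusted p-values and a threshold of 0.05; DESeq2 1.42.0 was an alternative. The whole-joint and gated fits were tested on simulated data with known changes. The whole-joint fit called 60% of 2-fold and 100% of 4-fold changes. The gated fit called 0% of 2-fold and 0% of 4-fold changes. The planned test needed 5 gated cells per mouse and could not be run, so mice with 2 or more were used. Shares were compared with exact permutation tests (scipy 1.17.1), intervals are Clopper-Pearson 95% intervals, and floors are 3 counts or cells; both cover counting error only. Thinning to 400 counts left out 1 cell. Named genes were the gate genes, Col1a1 and Col1a2; up to 5 members of each bone list with the highest level in gated cells and up to 3 of any list with the smallest p; the 20 largest ratios among genes in at least 20% of gated cells; the 5 smallest p-values in each direction in gated cells and the called interaction genes; and bone list members called in the whole joint. Other genes, those at 0 in healthy gated cells and the cell patterns were chosen after their values were seen. A gene that this rule would name is not reported here. Each mouse is 1 library, so p-values measure the spread between mice. Mice with the same number in both groups did not deviate together, so numbers were not used as pairs. Fold bounds with a mouse left out and CPM without TMM scaling were added after seeing the data. Alternatives were other gate thresholds, filters, scalings and left-out mice.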

Additional observations from a re-analysis of the deposited data

Results flagged for a closer look

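Of 25 groups of mice examined for a single distant value, 4 held one, and chance gives about 1 in 20. Haemoglobin genes made up 27.0% of the counts of gated cells in Sick mouse 6, far above the other sick mice (2.03 to 5.73%). S100a8 and S100a9 made up 26.6% of the counts of gated cells in Sick mouse 5, which had only 3 gated cells. In the sum of all cells, Healthy mouse 3 stood apart from the other healthy mice with 151 CPM of Ibsp and 615 CPM of Col1a1 (TMM-scaled). Without that scaling Ibsp, at 113 CPM, still stood apart by this measure and Col1a1, at 461 CPM, did not.

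For 4 genes the difference between sick and healthy mice in gated cells differed from that in the other cells by the interaction test of edgeR. The log2 estimates were 7.60 for Col2a1, 12.31 for Cxcl12, 12 for Fabp4 and −6.20 for Col3a1, against a median of 2.17 over all tested genes. Each of these calls was lost when at least 1 mouse was left out. What sets them was not tested.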

How the results depend on the processing

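With at least 300 genes per cell the difference in gated share was −0.0112 percentage points (exact permutation p = 0.937); with a replicate block it was 0.00755 (p = 1, permutation), and it was 0.0220 to 0.332 with a mouse left out. The share of gated cells with collagen counts was 67.2%, 91.2% and 100% at gate thresholds of 2, 6 and 10, and 78.7 to 86.8% with a mouse left out.

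Genes passing in the whole joint numbered 258 with DESeq2, 285 with no filter, 93 with the replicate block, 14 without Healthy mice 2, 3 and 4 together (the lone healthy mouse is assumed to vary like the sick mice) and 51 to 261 with a mouse left out; the count was 261 without Healthy mouse 1, 61 without Healthy mouse 2 or 3, 64 without Healthy mouse 4, 57 without Sick mouse 3 and 51 without Sick mouse 5. In gated cells 3 passed at a threshold of 2, 3 with the replicate block, 1 without the deepest cell and 0 to 1 with a mouse left out. For the interaction 2 passed at a threshold of 2 and 1 to 4 with a mouse left out (1 without Healthy mouse 1, Healthy mouse 3 or Sick mouse 5). Under the block, Spp1 and Cxcl12 passed in gated cells (edgeR adjusted p = 0.0109 and 0.00547) and Vcam1 did not in the whole joint (0.101).

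None of the following Bglap, Ibsp, collagen and Sparc estimates passed. In the whole joint, Bglap was −0.39 outside the gate, −0.10 without Healthy mice 2, 3 and 4, and −0.16 to 0.98 with a mouse left out. Ibsp was 0.0108 with no filter, 0.43 with the block, 2.23 without Healthy mice 2, 3 and 4, and −0.46 to 1.54 with a mouse left out. Col1a1 ranged from −0.14 to 1.72 and Col1a2 from −0.11 to 1.54 with a mouse left out. In gated cells, Col1a1 was −0.18 with DESeq2, −0.11 with its size factors, −0.12 at a threshold of 2 and −0.72 to 0.41 with a mouse left out. Col1a2 was −0.27, −0.15 and −0.30 under the same settings, −0.45 without Healthy mice 2, 3 and 4, and −0.94 to 0.54 with a mouse left out. Sparc was 0.43 with no filter, 0.73 at a threshold of 2 with 5 cells per mouse, 0.0584 in gated cells with collagen, 0.14 without the deepest cell, 0.13 with gate genes kept, 0.68 with the block and −1.17 to 0.86 with a mouse left out. With a mouse left out, the Col3a1 interaction ranged from −8.40 to 4.55 (adjusted p = 0.000562 to 0.913, edgeR), the difference in median counts of gated cells from −257 to 169 and that in collagen percent from −3.54 to 2.46. The cause was not tested.

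No value could be had for the gated test at thresholds of 6 or 10, with at least 3, 5 or 10 gated cells per mouse or under 5% haemoglobin, nor for the interaction at a threshold of 10, since these required at least 2 healthy mice and fewer were left. Same-numbered mice of both groups had correlations of deviations of 0.173, −0.0478 and 0.0701. The 17 healthy gated cells, 13 of them from 1 mouse, limit every comparison within the gate.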
